A study of Homo sapiens with 9 samples.

Results

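The genes of the 5 NF-κB transcription factor subunits, NFKB1, NFKB2, REL, RELA and RELB, were followed in HT-29 cells, a human colorectal adenocarcinoma line. They were found by their symbols among 62,710 distinct gene identifiers, and all 5 passed the filter on low counts that left 17,412 genes for testing. The cells were wild type in all groups and were either non-stimulated or received ADP-heptose or flagellin, at 500 ng/mL each, and were collected after 2.5 h, with 3 libraries of poly(A) RNA per group. ADP-heptose is a sugar nucleotide from the synthesis of bacterial lipopolysaccharide that is sensed inside the cell by the kinase ALPK1, and flagellin is the protein of the bacterial flagellum that is sensed by the receptor TLR5. The 3 groups are a single cell line sampled at a single time. The libraries of a group came from separate experiments by the study's description, and the labels do not say which libraries of different groups shared an experiment.

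NF-κB factors are dimers built from these subunits. RELA (p65), RELB and REL (c-Rel) carry domains that activate transcription, whereas NFKB1 and NFKB2 encode the precursors p105 and p100, which are processed to the DNA-binding subunits p50 and p52. Unprocessed p105 and p100 hold other subunits in the cytoplasm, as the IκB proteins do. In the canonical route the IKK complex marks IκB proteins for destruction and releases mainly RELA with p50, and in the non-canonical route the kinase NIK drives the processing of p100 to p52, the usual partner of RELB. Several NF-κB subunit and inhibitor genes are themselves known NF-κB targets, and in gut epithelium the pathway is known for the release of chemokines in response to bacterial products.

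Stretches before the listed transcript starts of the subunit genes are shown because the subunits bind DNA at κB sites, and the genes differed in whether such letters were found. A gene can have several listed starts, so a window before one start can lie inside the gene as annotated. RefSeq windows (GRCh38.p14) were matched for NFKB1, NFKB2, REL and RELA, 4 of the 5 subunits, and not for RELB. The 250 bases before each listed start were searched on both strands for the κB consensus, a motif of 10 letters, and overlapping matches were counted separately. In the lines that follow, each context runs 5′ to 3′ on the strand of the gene, and the capitals mark the matched letters, merged where matches overlap.
NFKB1, chr4:102501300-102501329, plus strand: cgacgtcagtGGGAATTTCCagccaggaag
REL, chr2:60881517-60881546, plus strand: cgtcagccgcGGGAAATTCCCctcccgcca
NFKB2, chr10:102394461-102394490, plus strand: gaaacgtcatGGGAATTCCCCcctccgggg
NFKB2, chr10:102394490-102394519, plus strand: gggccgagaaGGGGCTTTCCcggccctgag
NFKB2, chr10:102395519-102395548, plus strand: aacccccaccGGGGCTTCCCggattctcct
NFKB2, chr10:102395674-102395703, plus strand: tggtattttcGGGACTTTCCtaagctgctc

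The NFKB1 match lay 49 to 40 bases before the start of 1 of its 2 windows, and the other window held none. REL had 2 overlapping matches in its only window, starting 47 and 46 bases before the start. NFKB2 had 3 windows, of which the first held no match, the second held 3 and the third held 2. Neither of the 2 RELA windows held a match. Only the NFKB1 match lay upstream of the whole annotated gene. Both REL matches and 4 of the 5 in NFKB2 overlapped an annotated exon of their gene. The NFKB2 match nearest to its listed start did so by its last base only. The other NFKB2 match also lay inside the gene, and the NFKB2 window upstream of the whole gene was the first, without a match. A match was found for 6.28% of the 27,305 genes with a window and in 5.21% of all 35,116 windows. A match is a run of letters and not a measured binding site. The stretch around the NFKB1 match and a RELA stretch without one are given whole as a pair, and neither overlaps an annotated exon of its gene. They differ in length, 220 and 72 bases, and a shorter stretch has less room for a match. The 250 bases before the other RELA start, also free of its exons, held no match either.
NFKB1, chr4:102501109-102501328, plus strand: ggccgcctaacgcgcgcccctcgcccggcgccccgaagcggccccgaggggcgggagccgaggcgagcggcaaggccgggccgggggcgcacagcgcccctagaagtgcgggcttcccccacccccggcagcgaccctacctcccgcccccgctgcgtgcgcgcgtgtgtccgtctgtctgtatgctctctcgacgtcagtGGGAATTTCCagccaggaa
RELA, chr11:65663095-65663166, minus strand: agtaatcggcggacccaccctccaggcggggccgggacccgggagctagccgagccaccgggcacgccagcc

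The libraries held 30,770,448 to 58,272,772 counts. A gene was called changed at a Benjamini-Hochberg adjusted p under 0.05 in edgeR's quasi-likelihood test over all genes, and levels are TMM-normalised CPM, counts scaled to a common library size. After ADP-heptose 1302 genes were called higher and 770 lower, which became 917 and 1886 when libraries were scaled by their totals. Against flagellin the split was 940 higher and 481 lower, or 708 and 1064 with library totals, a scaling that moved the median of all genes by −0.127 and −0.113 on the log2 scale. Each subunit kept its direction and its call under that scaling. ADP-heptose replicate 3 stood apart: the SD of its log2 differences over 11,023 genes was 0.364 and 0.372 against replicates 1 and 2, while those 2 differed by 0.110. Of the epithelial markers fixed for the line, EPCAM and the keratins KRT8, KRT18, KRT19 and KRT20 were high, and the intestinal regulator genes CDX1 and CDX2 were near 0, at 0.000 and 1.14 CPM on average in non-stimulated cells. The 8 leukocyte markers summed to 0.111 to 0.410 CPM in non-stimulated, 0.180 to 0.602 in flagellin and 0.684 to 1.45 in ADP-heptose libraries, and 3 of them, CD3E, CD3D and MS4A1, were at 0 throughout. The 10 epithelial markers summed to 8679 to 9097, 8904 to 9278 and 9513 to 13,380 CPM in the same order, and the 7 stromal and endothelial ones to 12.6 to 14.7, 12.6 to 16.1 and 17.0 to 19.2 CPM, with 3 at 0 throughout. Within the leukocyte sums ITGAM averaged 0.0537 CPM in non-stimulated and 0.824 CPM in ADP-heptose libraries. COL1A1 averaged 13.5 and 18.0 CPM within the stromal and endothelial sums. The cultures are a single cell line, and the part of these markers in the subunit values was not tested. More cells with a marker and more of its RNA per cell cannot be told apart in these bulk libraries.

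After ADP-heptose stimulation all 5 subunit RNAs were higher than in non-stimulated cells, where 7.48% of the genes tested were called higher. The rise was 9.46-fold for NFKB2, 8.71-fold for RELB, 4.03-fold for NFKB1, 3.29-fold for REL and 1.94-fold for RELA. With the added requirement of a 2-fold change, 4 of the 5 were called, against 2.89% of all genes. After flagellin 3 of the 5 were higher, NFKB2, RELB and NFKB1, where 0.368% of all genes were called higher, and NFKB2 and RELB also passed the 2-fold requirement, against 0.212%. Between the stimuli, all 5 were higher after ADP-heptose than after flagellin, where 5.4% of all genes were, and 4 of them by at least 2-fold, against 2.06%. For each subunit the lowest ADP-heptose library exceeded the highest non-stimulated one, as for 15.4% of all genes, and the highest flagellin one, as for 14.2%. The comparisons share libraries, so their values are set side by side and not as independent results.

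**Figure D1:**
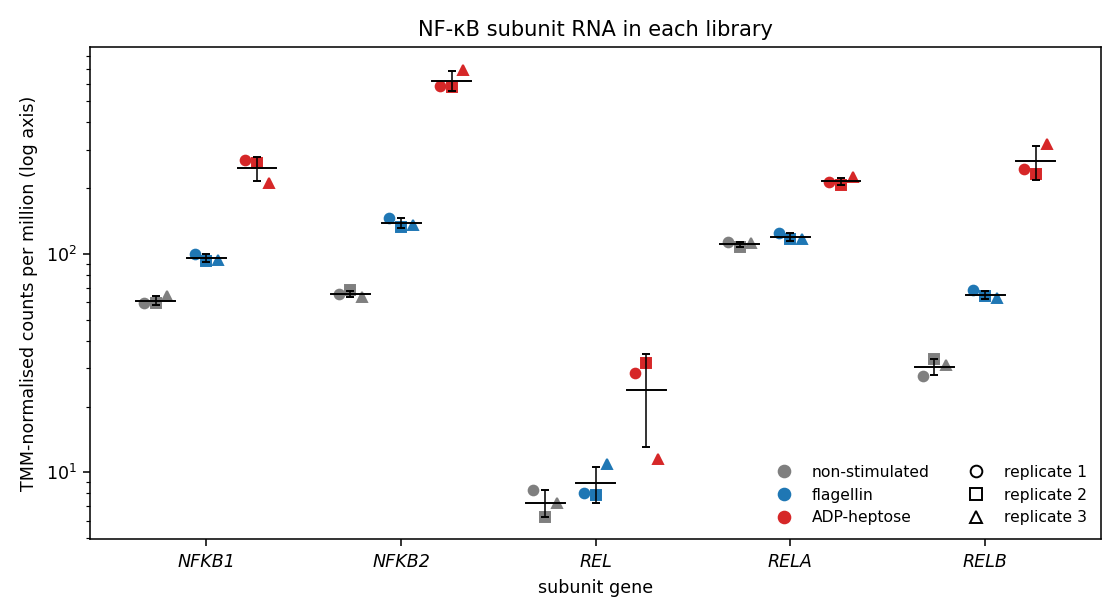
TMM-normalised CPM (log axis) of each subunit gene in the 9 libraries; colours mark the groups, marker shapes the replicate, and black bars the group mean and SD (n = 3). NFKB2 went from 63.4 to 68.0 in non-stimulated to 577 to 696 in ADP-heptose libraries, and REL in ADP-heptose replicate 3 lay at 11.5, far under the 28.6 and 31.6 of the other two.

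NFKB2 (ENSG00000077150, chr10:102394110-102402529 on GRCh38, plus strand) encodes p100, the precursor of p52. Its levels were 65.3, 68.0 and 63.4 CPM in the 3 non-stimulated libraries, 147, 133 and 135 CPM after flagellin and 588, 577 and 696 CPM after ADP-heptose. The groups did not overlap, and the lowest ADP-heptose library was 8.49 times the highest non-stimulated one. The log2 fold change was 3.24 ± 0.09 (SE, edgeR adjusted p = 1.72e-10) for ADP-heptose and 1.08 ± 0.08 (2.6e-05) for flagellin. Between the stimuli it was 2.17 ± 0.09 (edgeR adjusted p = 7.78e-09), a further 4.49-fold. Its windows held 5 of the 8 κB consensus matches found, counted with overlaps, all 5 inside the annotated gene.

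RELB (ENSG00000104856, chr19:45001430-45038198, plus strand) encodes the usual partner of p52. Its levels were 27.6, 32.9 and 30.9 CPM in non-stimulated, 68.1, 63.8 and 62.5 CPM in flagellin and 244, 233 and 319 CPM in ADP-heptose libraries. The order of the groups was that of NFKB2, again without overlap, and ADP-heptose replicate 3 was the highest of its group for both genes. RELB rose by 3.12 ± 0.12 on the log2 scale (SE, edgeR adjusted p = 4.31e-09) after ADP-heptose and 1.09 ± 0.12 (0.000558) after flagellin. The difference between the stimuli was 2.03 ± 0.12 (edgeR adjusted p = 2.13e-07). After flagellin the RELB and NFKB2 changes lay within each other's 95% intervals, 0.84 to 1.34 and 0.90 to 1.26.

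NFKB1 (ENSG00000109320, chr4:102501329-102617302, plus strand) encodes p105, the precursor of p50. Its levels were 59.6, 59.4 and 64.3 CPM in non-stimulated, 100.3, 92.9 and 93.5 CPM in flagellin and 269, 260 and 210.4 CPM in ADP-heptose libraries. All flagellin libraries lay above all non-stimulated ones, but by 1.44 times at the nearest, less than the 1.96 times for NFKB2. The log2 fold change was 2.01 ± 0.09 (SE, edgeR adjusted p = 2.1e-08) after ADP-heptose, 0.65 ± 0.09 (0.00661) after flagellin and 1.37 ± 0.09 (9.6e-07) between the stimuli. The flagellin call was lost when 1 of 4 libraries was left out: the log2 change was then 0.60 without flagellin replicate 1 (adjusted p = 0.0887), 0.66 without flagellin replicate 2 (0.0505), 0.63 without non-stimulated replicate 1 (0.0672) and 0.63 without non-stimulated replicate 2 (0.0671).

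RELA (ENSG00000173039, chr11:65653596-65663094, minus strand) encodes p65, the main activating subunit of the canonical route. It was at 113, 108 and 112 CPM in non-stimulated, 125, 117 and 116 CPM in flagellin and 213, 207 and 224 CPM in ADP-heptose libraries. It had the tightest replicates of the 5, with a coefficient of variation of 2.68% to 3.91% per group. After ADP-heptose the log2 fold change was 0.95 ± 0.06 (SE, edgeR adjusted p = 6.73e-07), just under 2-fold, with an interval from 1.76-fold to 2.13-fold. After flagellin it was 0.11 ± 0.06 (edgeR adjusted p = 1), and the interval ran from 0.977-fold to 1.19-fold. The flagellin and non-stimulated libraries did not overlap, but the lowest of the former exceeded the highest of the latter by a factor of 1.03, and 7.66% of all genes lay wholly higher in this way, as did 4 of the 5 subunits. Between the stimuli RELA differed by 0.85 ± 0.06 (edgeR adjusted p = 2.84e-06).

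REL (ENSG00000162924, chr2:60881521-60931610, plus strand) encodes c-Rel, a subunit best known from lymphocytes, and was the lowest of the 5. Its levels were 8.32, 6.26 and 7.24 CPM in non-stimulated and 8.06, 7.87 and 10.9 CPM in flagellin libraries, and these groups overlapped. The ADP-heptose libraries were at 28.6, 31.6 and 11.5 CPM, the third hardly above the highest flagellin library. In counts these were 225 to 325 in non-stimulated, 277 to 343 in flagellin and 522 to 1783 in ADP-heptose libraries. The log2 fold change was 1.72 ± 0.30 (SE, edgeR adjusted p = 0.00227) after ADP-heptose and 1.43 ± 0.30 (0.00933) between the stimuli. For flagellin it was 0.29 ± 0.31 (edgeR adjusted p = 1), with an interval from 0.766-fold to 1.95-fold, which still holds a rise of nearly 2-fold. Without ADP-heptose replicate 3 the changes were 2.05 (adjusted p = 1.54e-15) and 1.77 (6.27e-14). The call between the stimuli was lost without flagellin replicate 1 (1.36, adjusted p = 0.0595) or replicate 2 (1.35, 0.0597).

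**Figure D2:**
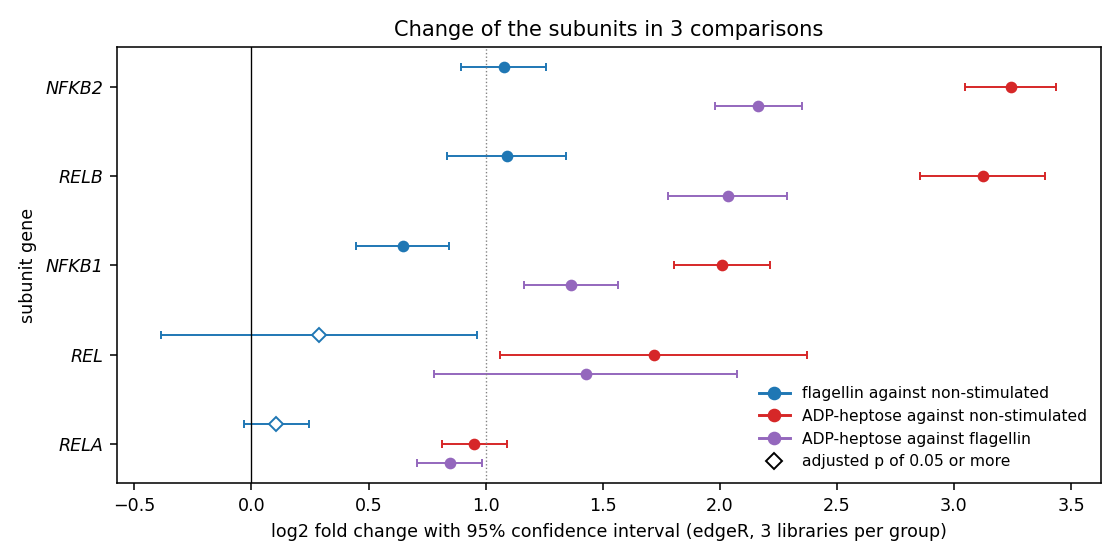
Log2 fold changes of the 5 subunits (x axis) with 95% confidence intervals in the 3 comparisons; filled circles passed an adjusted p of 0.05, open diamonds did not, and the dotted line marks a 2-fold change. NFKB2 and RELB lay farthest to the right at 3.24 and 3.12 after ADP-heptose, and REL and RELA after flagellin were the 2 values that did not pass.

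REL stood out in ADP-heptose replicate 3, and the deviations of the subunits in that library were set against transcript length. For the tenth of genes with the shortest transcripts the median log2 difference of that library from the mean of the other 2 was 0.44, and for the tenth with the longest it was −0.39. In non-stimulated replicate 2 the same medians were 0.12 and −0.12. REL has the longest reference transcript of the 5, 11,255 bases, and deviated by −1.38, lower than all but 0.458% of the genes in its length class. RELB (2294 bases) deviated by 0.42 where its class had a median of 0.21, NFKB2 (3416 bases) by 0.26 against −0.04, RELA (3183 bases) by 0.09 against 0.04 and NFKB1 (4085 bases) by −0.33 against −0.12. With length and GC content as offsets, an alternative chosen after seeing the data, the ADP-heptose changes were 1.77 for REL, 2.90 for RELB, 3.09 for NFKB2, 0.84 for RELA and 2.01 for NFKB1, all still called. The part of transcript length in the REL value of this library was not tested further.

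**Figure D3:**
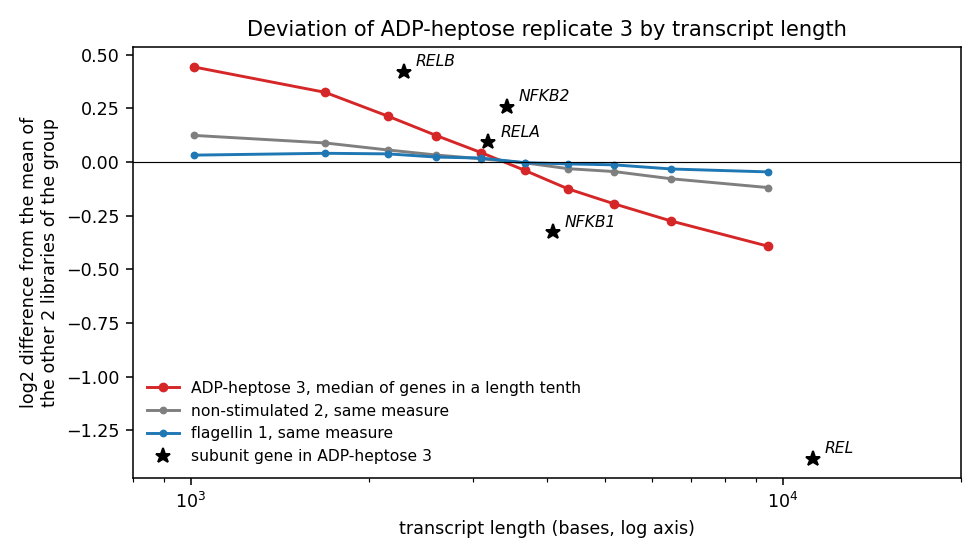
Log2 difference of a library from the mean of the other 2 of its group (y axis) against transcript length (log x axis); lines join the medians of 10 classes of genes by length for ADP-heptose replicate 3, non-stimulated replicate 2 and flagellin replicate 1, and stars are the subunit genes in ADP-heptose replicate 3. The line of ADP-heptose replicate 3 fell from 0.44 to −0.39, and REL lay at −1.38, under it.

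The annotation around the subunits also bears on REL. Of its 13,170 merged exon bases in GENCODE 29, 5702 (43.3%) are shared with AC010733.2 (ENSG00000267520) on the same strand, which was listed at 0 counts in all 9 libraries. How the counting program assigned reads over both genes is not given in the sources used here, so the level of REL is uncertain, and the small RNA pseudogene RNU4-51P inside it was also listed at 0. RELA shares 9 bases with its divergent transcript RELA-DT (ENSG00000285533), which was at 4.12 CPM in non-stimulated cells and differed by 0.01 ± 0.15 on the log2 scale after ADP-heptose (edgeR adjusted p = 0.964). NFKB1, NFKB2 and RELB share no exon base with another gene.

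Because a ratio of 2 genes within a library needs no scaling between libraries, the make-up of the subunits was also compared in that way, over 5 ratios and 3 comparisons. The count ratio of NFKB2 to RELA was 0.576, 0.633 and 0.568 in non-stimulated, 1.18, 1.14 and 1.16 in flagellin and 2.77, 2.79 and 3.11 in ADP-heptose libraries. The RELB to RELA ratio was 0.244, 0.306 and 0.277 in non-stimulated, 0.547, 0.546 and 0.537 in flagellin and 1.15, 1.12 and 1.43 in ADP-heptose libraries. Both ratios thus rose in steps with no overlap, by 4.88-fold and 4.47-fold from non-stimulated to ADP-heptose. The NFKB1 to RELA ratio had geometric means of 0.551, 0.801 and 1.14 in the same order, and that of NFKB2 to NFKB1 was 1.07, 1.45 and 2.52. Replicate 3 stood apart within ADP-heptose, with NFKB1 to RELA at 1.266, 1.253 and 0.941 and NFKB2 to NFKB1 at 2.187, 2.225 and 3.306. The part of that library's length trend in the ratios was not tested. In each of these 12 comparisons the exact permutation test (two-sided, 3 against 3 libraries) gave p = 0.1, the smallest it allows, and an adjusted p of 0.125 over 15 tests, so none can pass 0.05. The REL to RELA ratio overlapped in all 3 comparisons (exact permutation p = 0.4, 0.5 and 0.4). Its value was 0.135 and 0.153 in ADP-heptose replicates 1 and 2 and 0.0515 in replicate 3, under every other library, and without replicate 3 its difference from non-stimulated was 1.14 on the log2 scale instead of 0.64.

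Levels of different genes were compared per kilobase of reference transcript. In non-stimulated cells RELA led with 34.8 ± 0.9 CPM per kilobase (SD, n = 3), followed by NFKB2 with 19.2 ± 0.7, NFKB1 with 15.0 ± 0.7, RELB with 13.3 ± 1.2 and REL with 0.646 ± 0.091, and no neighbours in this order overlapped. After flagellin NFKB2 was at 40.5 ± 2.1 and RELA at 37.5 ± 1.4, and these 2 overlapped. RELB at 28.2 ± 1.3 lay above NFKB1 at 23.4 ± 1.0, and REL was at 0.793 ± 0.149. After ADP-heptose NFKB2 reached 182 ± 19 and RELB 116 ± 21, followed by RELA at 67.4 ± 2.6 and NFKB1 at 60.3 ± 7.7, which overlapped, and REL at 2.12 ± 0.96.

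As a share of the 5 subunits on this per-length scale, RELA made up 42.0% ± 1.4 in non-stimulated, 28.7% ± 0.2 in flagellin and 15.8% ± 0.6 in ADP-heptose libraries (SD, n = 3). NFKB2 took 23.2% ± 0.9, 31.1% ± 0.3 and 42.5% ± 1.1, and RELB 16.0% ± 1.3, 21.7% ± 0.3 and 27.0% ± 2.6. The share of NFKB1 was 18.0% ± 0.7, 17.9% ± 0.04 and 14.3% ± 2.8. RELA therefore took the largest share in non-stimulated cells and NFKB2 after ADP-heptose, although RELA RNA itself was higher there. REL took under 1% in each group, but its share rests on a length of which much is shared, and over merged exons that no other gene shares it was 1.75%, 1.33% and 1.07%. With merged exons for all genes, RELB overlapped NFKB1 in non-stimulated cells and RELA after flagellin, and NFKB2 no longer overlapped RELA after flagellin. The order of means also changed with that length. RELB then averaged 10.04 and NFKB1 9.765 CPM per kilobase in non-stimulated cells, and NFKB1 39.36 and RELA 39.24 after ADP-heptose, where these 2 overlapped.

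**Figure D4:**
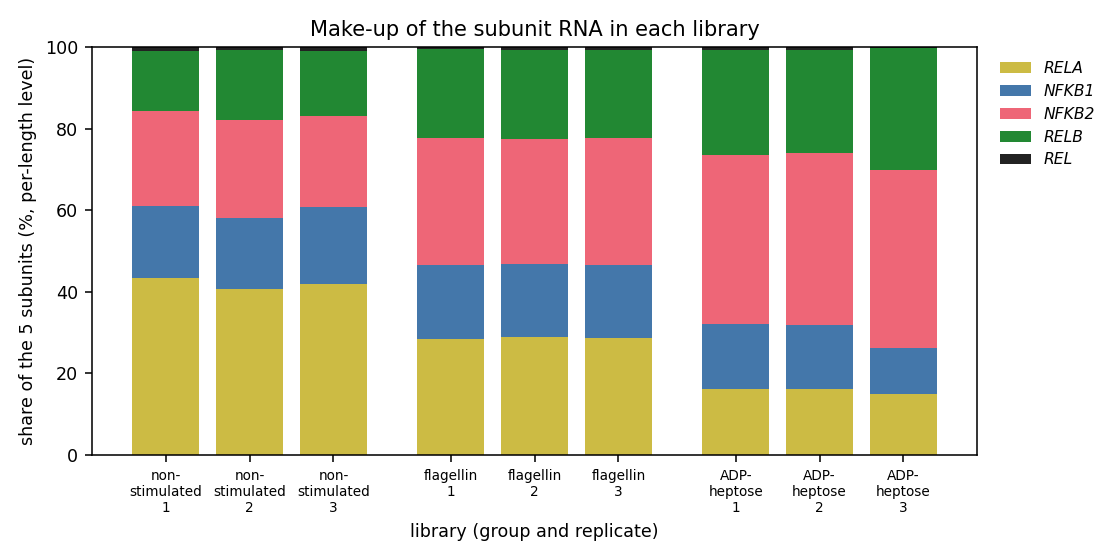
Share (%) of each subunit in the summed per-length level of the 5 subunits, 1 stacked bar per library. RELA shrinks from 42.0% on average in non-stimulated to 15.8% in ADP-heptose libraries, and NFKB2 grows from 23.2% to 42.5%.

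The IκB family holds the proteins that retain the subunits in the cytoplasm and their nuclear relatives. After ADP-heptose all 6 IκB inhibitors and cofactors were called higher, as were 7.48% of all genes. The median log2 fold change of the 6 was 2.22, beside 0.0087 over all genes. NFKBIA, which encodes IκBα, rose from 30.1 to 461 CPM (log2 fold change 3.94 ± 0.07), NFKBIE from 8.72 to 78.4 CPM (3.17 ± 0.14) and BCL3, a nuclear partner of p50 and p52, from 37.8 to 364 CPM (3.27 ± 0.09). NFKBID (1.27), NFKBIZ (0.98) and NFKBIB (0.79) rose less. After flagellin 3 of the 6 were higher, where 0.368% of all genes were called higher. These were NFKBIE (0.81, edgeR adjusted p = 0.0245), NFKBIA (0.68, 0.000239) and BCL3 (0.58, 0.00796), and the list median was 0.42. The flagellin count fell to 1 or 2 when any single flagellin or non-stimulated library was left out, and was 4 without ADP-heptose replicate 3. NFKBIA was in each of these counts.

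Of the 10 genes listed as driving or restraining p100 processing, 9 were tested. After ADP-heptose 6 were higher and 1 was lower, where 7.48% of all genes were called higher and 4.42% lower. The median of the list was 0.74 on the log2 scale. BIRC3 (cIAP2), a ubiquitin ligase that keeps NIK low, rose most, from 11.2 to 342 CPM (4.93 ± 0.13), and its relative BIRC2 (1.11), TRAF3 (0.93) and TRAF2 (0.74) of the same complex were also higher. TNFRSF12A, the receptor for TWEAK, changed by 0.87, and MAP3K14, which encodes NIK itself, by 0.54 ± 0.12 (edgeR adjusted p = 0.0132). The MAP3K14 call was lost without non-stimulated replicate 2 or 3. TNFRSF11A (RANK) was lower by −0.28 ± 0.08 (edgeR adjusted p = 0.0377), a call lost without ADP-heptose replicate 1 or any 1 of the flagellin and non-stimulated libraries. The lymphotoxin β receptor gene LTBR had a value of −0.06 and TNFRSF13C of 0.66, neither past the test. After flagellin BIRC3 (2.08 ± 0.12, edgeR adjusted p = 1.88e-06) was the 1 gene of this list called, where 0.368% of all genes were called higher. Without ADP-heptose replicate 3 it was 1 of 3, with BIRC2 and TRAF3.

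MAP3K8 (TPL2) and TNIP2 (ABIN2), whose proteins are held by p105, were both higher after ADP-heptose, as were 7.48% of all genes. Their changes were 0.92 ± 0.08 (edgeR adjusted p = 1.04e-05) and 0.39 ± 0.08 (0.00487). Neither passed after flagellin in edgeR or DESeq2, with values of 0.31 and 0.07. MAP3K8 had an unadjusted p under 0.05 there and was called without ADP-heptose replicate 3. The TNIP2 call was lost with the offsets for length and GC content.

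The lists for the IKK complex and TAK1, and for the ubiquitin ligase and precursor processing, are short. Over all genes 11.9% were called in either direction after ADP-heptose and 0.379% after flagellin. No call in lists of this size is near those shares and is not a result about these genes. IKBKE, outside these lists, had log2 fold changes of 1.69 after ADP-heptose and 0.50 after flagellin. None of the 7 genes of the IKK complex and TAK1 passed edgeR's test after ADP-heptose or flagellin, and their medians were −0.07 and −0.04. Over all genes 4334 (24.9%) had an unadjusted p under 0.05 after ADP-heptose and 659 (3.78%) after flagellin. Of the 7 genes 0 did in either comparison, nor was any called by DESeq2. IKBKB was at 0.19 ± 0.11, CHUK at −0.10 ± 0.08, IKBKG at 0.26 ± 0.24 and MAP3K7 (TAK1) at 0.00 ± 0.09. Without ADP-heptose replicate 3 IKBKB was called higher, and TAB1 was called lower with library totals and with the length and GC offsets. Nor did any of the 6 genes of the ubiquitin ligase and of precursor processing pass edgeR's test, with medians of −0.02 for each stimulus and unadjusted p under 0.05 for 1 after ADP-heptose and 0 after flagellin. That gene, BTRC, encodes the F-box protein that binds phosphorylated IκB and was called lower after ADP-heptose with library totals and in DESeq2.

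Upstream, ALPK1 was at 7.50 CPM in non-stimulated cells and its log2 fold change after ADP-heptose was −0.07 ± 0.14, while TIFA, the adaptor that ALPK1 phosphorylates, rose from 12.3 to 55.7 CPM (2.18 ± 0.13, edgeR adjusted p = 2.24e-07). TIFA was at 19.6 CPM after flagellin (0.67 ± 0.13, edgeR adjusted p = 0.0609), which passed under 6 alternatives, DESeq2 and leaving out ADP-heptose replicate 3 among them. TRAF6 was at −0.10 for each stimulus. Of the 3 genes of this route 1 was thus called after ADP-heptose and none after flagellin, beside 7.48% and 0.368% of all genes called higher. TLR5 was too low to be tested, at 0.140 CPM in non-stimulated, 0.158 in flagellin and 0.128 in ADP-heptose cells. The other 3 genes of its route, MYD88, IRAK1 and IRAK4, did not pass in either comparison in edgeR or DESeq2, and 0 had an unadjusted p under 0.05.

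**Figure D5:**
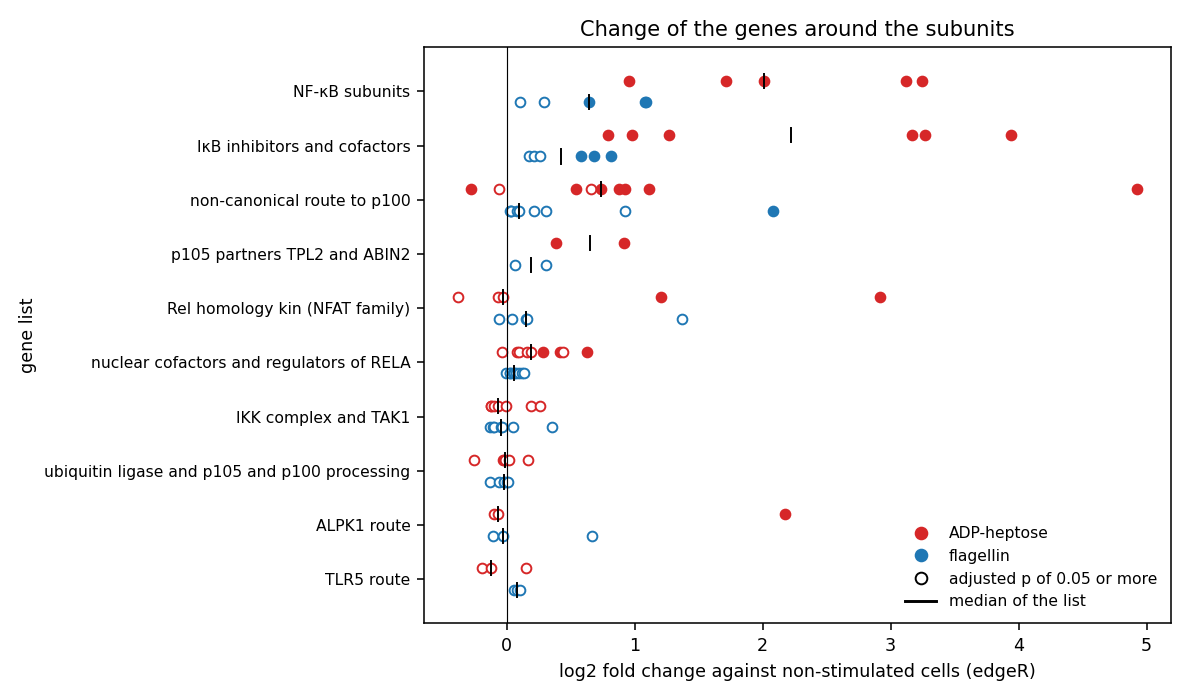
Log2 fold changes against non-stimulated cells (x axis) of the subunits and of 9 lists of related genes; each circle is a gene, red for ADP-heptose and blue for flagellin, filled when past an adjusted p of 0.05, with black bars for the list medians. The subunits and the IκB list have medians of 2.01 and 2.22 after ADP-heptose, and the IKK complex and TAK1 list clusters around 0.

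Among the subunits, the levels of NFKB2 and RELB were the most alike over the 9 libraries (Pearson r = 0.998 of log2 CPM), and REL with RELB the least (0.793). These correlations describe 9 libraries that fall into 3 groups and share normalisation, and are not a test. In ADP-heptose replicate 3 REL deviated from the other libraries of its group by −1.38 and RELB by 0.42 on the log2 scale. The part of that library in the REL correlations was not tested. Among 9871 genes whose log2 CPM averaged 3 or more, those most like NFKB2 were IKBKE (0.998), TRIM31 and SDC4, those most like RELB were PI3 (0.998), SLC52A3 and FSTL3, and those most like NFKB1 were ABTB2 (0.997), SGPP2 and TNFAIP3. For RELA they were CDKN1A (0.999), SQSTM1 and IER3, whose log2 fold changes after flagellin were 0.32, 0.24 and 0.38, beside 2.72, 1.55 and 3.50 after ADP-heptose. REL was most like ELOVL7 (0.996), MAPK6 and DCBLD2, which changed by 0.56, 0.49 and 0.35 after ADP-heptose.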

How the data were processed

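Poly(A) RNA of HT-29 cells was sequenced as paired 150-base reads. The authors aligned them with HISAT2 and counted reads over genes with featureCounts, and the raw counts were deposited as 1 column per library. Versions, build, annotation and strandedness are not given in the sources used here. The 62,972 lines hold 62,710 identifiers, 232 of them repeated with identical counts and kept once. Depth was 30,770,448 to 58,272,772 counts per library, and the subunits had 225 to 32,577 counts each.

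For 17,412 genes (filterByExpr), counts were modelled in edgeR 4.0.16 under R 4.3.3 (TMM, robust quasi-likelihood F test, all 9 libraries, no covariates), with Benjamini-Hochberg adjustment over all genes. DESeq2 1.42.0, other scalings and filters, fits of 6 libraries, a replicate block and leaving out each library were alternatives, and offsets for length and GC content and unshared exon lengths were added after seeing the data. Positions, exons and lengths (longest basic coding transcript) came from GENCODE 29, which held 92.9% of the identifiers, and promoter sequences from RefSeq on GRCh38.p14.

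The members, the gene lists and the rule for named genes (subunits, listed genes, the 3 genes most like each subunit, and overlapping or nearest neighbours) were chosen with earlier results of these data known.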

Additional observations from a re-analysis of the deposited data

How the results depend on the processing

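Of 255 fold changes recomputed for the 5 subunits, 249 kept their direction and their side of the threshold and none reversed. The 6 others left out 1 library. For NFKB1 after flagellin the values over all libraries left out ran from 0.60 to 0.68, and for REL between the stimuli from 1.18 to 1.77, with the calls lost as given above. The number of subunits called after flagellin was 2 to 3 and between the stimuli 4 to 5. With merged exon lengths the shares moved to 17.0% for NFKB1 after flagellin, to 26.5%, 34.3% and 45.1% for NFKB2, to 36.7%, 24.3% and 12.8% for RELA, to 18.2% and 23.7% for RELB and to 1.001% and 0.756% for REL (non-stimulated, flagellin and, where given, ADP-heptose); with exons shared with no other gene REL was at 1.75%, 1.33% and 1.07%.

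The replicate block changed no call of a subunit (NFKB1 after flagellin 0.64, edgeR adjusted p = 0.0349, and REL between the stimuli 1.36, 0.0355). Paired differences of the ratios gave exact permutation p = 0.25 or 0.5, and with 3 pairs 0.25 is the smallest that test allows. The labels do not say that a number is a shared experiment, so the numbers were not taken to pair the libraries. Deviations from the group means correlated by −0.447 to 0.294 for same-numbered libraries and by −0.461 to 0.498 for others. With 3 libraries per group, 1 of which stood apart, these correlations cannot decide the pairing. Among the genes of the lists, the block lost the calls of TNFRSF11A, PPP1R13L and SIRT1 against non-stimulated cells. Between the stimuli it lost those of TNFRSF11A and ITGAM, and it moved the count of genes lower after flagellin from 2 to 1.

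Counts over all genes varied more. Genes lower after ADP-heptose numbered 770, but 1886 with library totals, 433 in the fit of 6 libraries, 1689 with length and GC offsets and 392 to 1270 with a library left out; genes higher numbered 1302, or 2018 without ADP-heptose replicate 3. After flagellin 64 were higher, or 102 in DESeq2, 114 unfiltered, 140 in 6 libraries and 38 to 165 with a library left out; 2 were lower, or 4 in DESeq2, 10 unfiltered and 0 to 6 with a library left out. Between the stimuli 940 were higher, or 1798 without ADP-heptose replicate 3, and 481 lower, or 1064 with library totals, 269 in 6 libraries, 1177 with offsets and 233 to 923 with a library left out. The cause was not tested. Depth limits genes near 0, such as TLR5, which was too low to be tested.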

Other observations

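The NFAT factors carry a DNA-binding domain related to that of the NF-κB subunits. Of these 5 genes 2 were higher after ADP-heptose, where 7.48% of all genes were called higher. NFATC2 rose from 11.5 to 26.5 CPM (log2 fold change 1.21 ± 0.15, edgeR adjusted p = 0.000196) and was at 12.8 CPM after flagellin. NFATC1 was near the limit of detection, at 0.0729 CPM in non-stimulated and 0.561 CPM in ADP-heptose cells (2.92 ± 0.65, edgeR adjusted p = 0.0115). NFATC3 (−0.38), NFATC4 (−0.07) and NFAT5 (−0.03) did not pass, and the list median was −0.03. Without ADP-heptose replicate 3 NFAT5 was also called higher. With no filter on low counts NFATC3 was called lower after ADP-heptose, against non-stimulated cells and against flagellin. None of the 5 passed edgeR's or DESeq2's test after flagellin, and 0 had an unadjusted p under 0.05.

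Of 9 nuclear cofactors and regulators of RELA, 3 were higher after ADP-heptose, where 7.48% of all genes were called higher. None was higher after flagellin in edgeR or DESeq2 (0 at an unadjusted p under 0.05), and the medians were 0.19 and 0.06. PDLIM2, which directs nuclear RELA to degradation, changed by 0.62 ± 0.10 (edgeR adjusted p = 0.00171), the deacetylase gene SIRT1 by 0.42 ± 0.12 (0.0436) and PPP1R13L, an inhibitor of RELA, by 0.28 ± 0.07 (0.026). The last 2 calls were both lost with library totals, in the fit of 6 libraries and when any 1 of 5 libraries was left out.

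Of the nearest neighbours of the subunit genes, PSD and MANBA were called after ADP-heptose, where 11.9% of all genes were called in either direction. PSD, which ends 87 bases beyond NFKB2 on the opposite strand, was at 0.837 CPM in non-stimulated and 1.78 CPM in ADP-heptose cells (log2 fold change 1.08 ± 0.28, edgeR adjusted p = 0.026). Reads from the 2 strands cannot be told apart if the counting did not use strand. MANBA, next to NFKB1, was lower after ADP-heptose than in non-stimulated cells (−0.35 ± 0.08, edgeR adjusted p = 0.0142) and than after flagellin (−0.30 ± 0.08, 0.0449). GBF1, CLPTM1, CLASRP and AF213884.3, the other neighbours, were at −0.03, 0.17, −0.02 and 0.60 and did not pass.

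Among the marker lists, 9 of 10 epithelial genes were tested. KRT20 was called higher after ADP-heptose (0.40 ± 0.06, edgeR adjusted p = 0.000941), where 7.48% of all genes were called higher. ITGAM, the 1 tested leukocyte marker, was near the limit of detection, at 0.824 CPM after ADP-heptose and 0.0537 CPM in non-stimulated cells. It was also called higher (3.87 ± 0.87, edgeR adjusted p = 0.0121). COL1A1, the 1 tested stromal marker, was at 18.0 and 13.5 CPM and was called higher too (0.41 ± 0.11, edgeR adjusted p = 0.0311). The COL1A1 call was lost with library totals.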
